A study of Mus musculus with 28 samples.

Results

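The genes described here are the mouse members of cytochrome P450 families 1 to 3, enzymes of the endoplasmic reticulum that oxidise drugs, toxicants, steroids, bile acids and fatty acids. A gene was included when its symbol followed the naming pattern of these families and when its level reached 1 FPKM (fragments per unit of transcript length and of sequencing depth) in at least 3 liver libraries or at least 4 kidney libraries. By this rule 46 of 59 matching symbols were members, 40 in liver and 19 in kidney. Both tissues shared 13 of them, 27 were members in liver only, and Cyp1b1, Cyp2d12, Cyp2j7, Cyp2j11, Cyp2j13 and Cyp2s1 were members in kidney only. The members were thus chosen by their measured levels, which are given as a description.

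RNA was sequenced from liver and kidney of male C57BL/KsJ db/db mice, which lack a working leptin receptor and become obese and diabetic, and every group carried this genotype; no lean group is analysed here. Mice entered at 8 weeks of age and were followed for 8 weeks in 4 groups. The control group was sedentary with normal rearing, the HIIT group ran high-intensity intervals on a treadmill in sessions of 60 min, the semaglutide group received injections of semaglutide, an agonist of the GLP-1 receptor, and the combined group received both. The labelled dose of semaglutide is 0.05 mg/kg in one field and 30 nmol/kg in another, and which applied is not known. Each group had 3 liver libraries and 4 kidney libraries, 28 in all. The 3 treated groups were each compared with the same control libraries, so those comparisons are not independent of each other.

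A P450 enzyme takes electrons from P450 oxidoreductase (Por) and, for some reactions, from cytochrome b5 (Cyb5a), and holds a haem group at its active site. In hepatocytes the genes of families 1 to 3 are switched on by ligand-activated receptors: the aryl hydrocarbon receptor (Ahr) acts on family 1, and the constitutive androstane receptor (CAR, gene Nr1i3) and the pregnane X receptor (PXR, gene Nr1i2) act on subfamilies 2b, 2c and 3a. Many family 2 genes also differ between male and female mouse liver under the pattern of growth hormone release, and inflammation is known to lower many hepatic P450 transcripts.

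Both tissues carried their own markers. The 5 hepatocyte markers summed to between 16640 and 33850 FPKM in the control livers and between 39790 and 41010 FPKM in the HIIT livers. They summed to between 18930 and 34590 FPKM in the semaglutide livers and between 36210 and 39890 FPKM in the combined livers. All 5 proximal tubule markers stayed below 1 FPKM in liver. The libraries that stood apart from their groups were 3, and they bear on many member values. Liver library control 3 had the highest Saa1 in liver, an acute phase gene, at 26104 FPKM, and its members were lower: 34 of 40 lay below the mean of the other 2 control libraries, at a median of 0.464 times that mean, and 20 of 40 were the lowest of all 12 libraries. Liver library semaglutide 2 held 3902 FPKM of the skeletal muscle actin Acta1, which was at or below 0.138 FPKM in the other liver libraries, and 39 of its 40 members lay below the rest of its group, at a median of 0.598 times. Kidney library control 1 held 1259 FPKM of Jchain, a plasma cell gene, against at most 3.41 FPKM in the other kidney libraries, and 13 of its 19 members lay below the rest of its group, at a median of 0.579 times. The 5 acute phase genes summed to between 7383 and 80430 FPKM in the control livers and to between 2554 and 9672 FPKM in all treated livers. The 4 skeletal muscle markers were at or below 0.183 FPKM in sum in the other 3 groups and reached 7267 FPKM in the semaglutide group. The 4 adipocyte markers likewise reached 1372 FPKM there and were at or below 17.1 FPKM in the other groups. The 5 macrophage markers reached 383 FPKM in the control livers, 371 FPKM in the semaglutide livers and 4973 FPKM in the control kidneys, against at most 112 FPKM in the HIIT and combined livers and 277 FPKM in the treated kidneys. The part of other cells and of inflammation in the member values of these 3 libraries was not tested. In bulk tissue, fewer cells of a type and less RNA per cell cannot be told apart.

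The threshold left few doubtful cases. In liver 35 of 40 members were past 1 FPKM in every library, and in kidney 17 of 19. None had passed through 1 group alone. Liver Cyp2g1 reached 1 FPKM in 8 libraries of 3 groups and in no semaglutide library. Kidney Cyp2c68 reached it in 4 libraries of 3 groups and in no HIIT library. The members nearest the liver threshold were Cyp2u1 and Cyp2g1, at 2.08 and 2.11 FPKM in the library that decided membership, the last of the 3 highest. Just outside were Cyp3a44 at 0.904 FPKM, with 12.6 FPKM in its highest library, and Cyp2d12 at 0.883 FPKM. In kidney Cyp2j7 was just inside at 1.14 FPKM, the last of its 4 highest libraries, and Cyp2c69 just outside at 0.863 FPKM. The naming pattern also leaves out Cyp3a41a and Cyp3a41b, which ranged from 0.122 to 34.1 FPKM and from 1.17 to 33.8 FPKM in liver. Many members stand in clusters of near copies on chromosomes 19, 7 and 15, which hold 13, 12 and 7 of them, and how reads that fit several copies were shared between them is not known here. Levels of close copies such as Cyp2a4 and Cyp2a5, or Cyp2b9, Cyp2b10 and Cyp2b13, are therefore less certain than those of single genes such as Cyp1a2.

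The members held a mean of 1.78% of the summed FPKM of control livers and 2.49% of HIIT livers. Summed over the 40 members, liver libraries held 12201, 10083 and 6557 FPKM in the control group, 13173, 13292 and 12657 FPKM in the HIIT group, 10929, 6454 and 10983 FPKM in the semaglutide group, and 12987, 10387 and 10923 FPKM in the combined group. The lowest sums were those of control 3 and semaglutide 2, the libraries that stood apart. Cyp2e1, which oxidises ethanol and paracetamol, had the highest mean of any member over the 12 libraries, 2834 FPKM, followed by Cyp3a11, the main drug-oxidising P450 of mouse liver, at 1769 FPKM. Cyp3a, Cyp2e, Cyp2c and Cyp2d held most of the sum, with mean shares of 25.9%, 23.7%, 18.2% and 16.0% in the control group. At the other end Cyp2g1, known best from olfactory epithelium, and Cyp2u1, a fatty acid hydroxylase, had means of 1.49 and 1.77 FPKM. The kidney sums were lower, from 988 to 2083 FPKM, led by Cyp2e1, Cyp2j5 and Cyp2d26, and no Cyp3a gene was a kidney member. Kidney values were deposited per gene and liver values per transcript, so levels in the tissues were not derived alike.

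**Figure D1:**
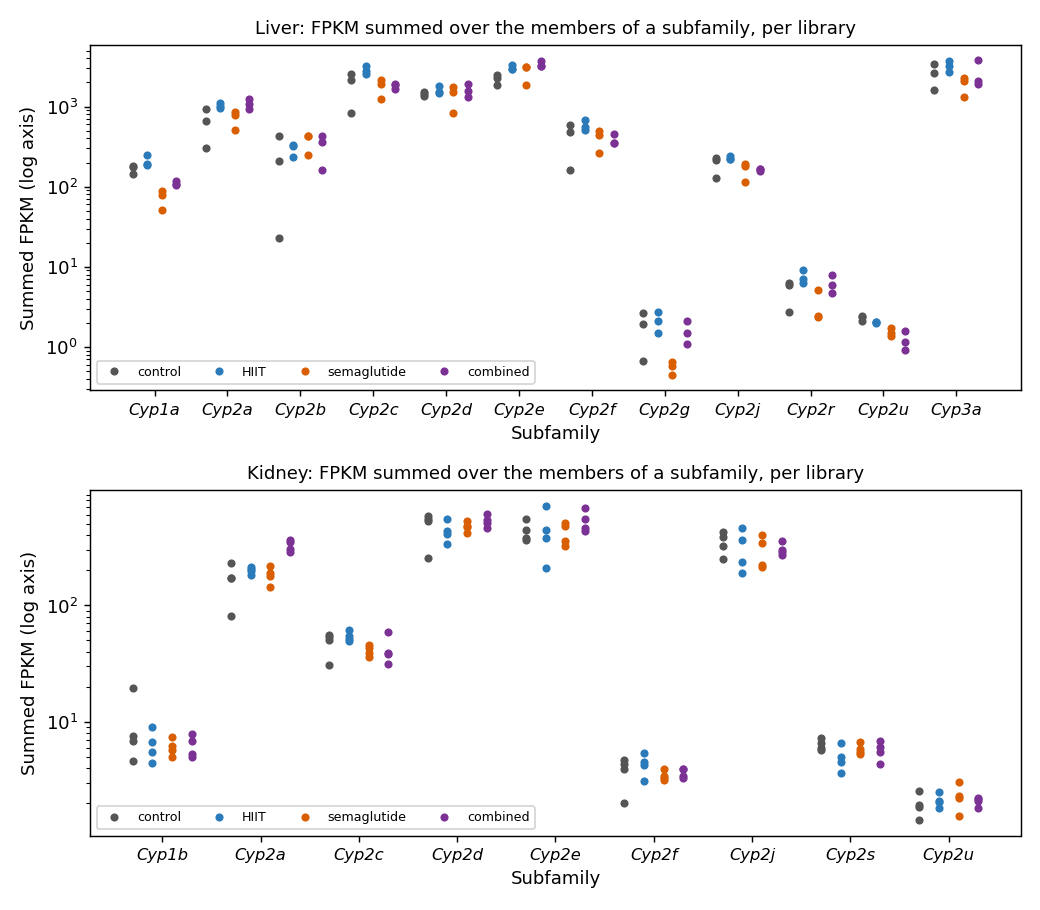
FPKM summed over the members of each subfamily, 1 point per library, on a log axis, with 3 liver libraries and 4 kidney libraries in each of the 4 groups. Liver Cyp1a, which is Cyp1a2 alone, lies between 50.9 and 117 FPKM in the semaglutide and combined libraries and between 145 and 248 FPKM in the control and HIIT libraries.

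Across the liver comparisons few members passed the test. Each comparison was fitted with limma over 10348 genes on the log2(FPKM + 1) scale, and a gene was called at an adjusted p below 0.05. Semaglutide against control called 1 of 40 members, Cyp1a2, which was lower, where 0.715% of all genes tested were called and 0.464% called lower. The semaglutide main effect, which is the mean difference between livers with and without the drug over both exercise states, called 2 of 40 members, Cyp1a2 and Cyp2u1, both lower, where 2.01% of all genes were called and 1.02% called lower. HIIT against control called 0 of 40 members and 0.0% of all genes, and combined against control called 0 of 40 members and 0.309% of all genes. The main effect of HIIT called 0 of 40 members and 0.0% of genes, and the interaction of the treatments 0 of 40 members and 0.00966% of genes. At an unadjusted limma p below 0.05 the member counts were 4 for HIIT, 7 for semaglutide, 9 for combined, 6 for the semaglutide main effect, 10 for the HIIT main effect and 2 for the interaction, where 7.22%, 15.3%, 12.2%, 17.5%, 7.16% and 8.61% of all genes passed.

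The signs of the member differences were counted with and without the libraries that stood apart. With HIIT 34 of 40 members had a higher mean log2 level than in the control group, at a median difference of 0.54 where all genes had a median of 0.05. Without control 3 and semaglutide 2 the count was 30 of 40 and the median 0.21, where all genes had 0.03. With semaglutide 20 of 40 members were above the control group at a median of -0.01, and 17 of 40 at -0.11 without these libraries. In the combined group 29 of 40 members were above the control group at a median of 0.30, but 19 of 40 at -0.08 without them. All genes had medians of 0.09 and -0.04 with semaglutide, and of 0.05 and 0.04 in the combined group, with and without these libraries. With all libraries 4 of 5 hepatocyte markers were above the control group with HIIT, at a median of 0.42. With semaglutide 2 of 5 were above it, at -0.28, and in the combined group 3 of 5, at 0.75. Their part in the member differences was not tested.

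**Figure D2:**
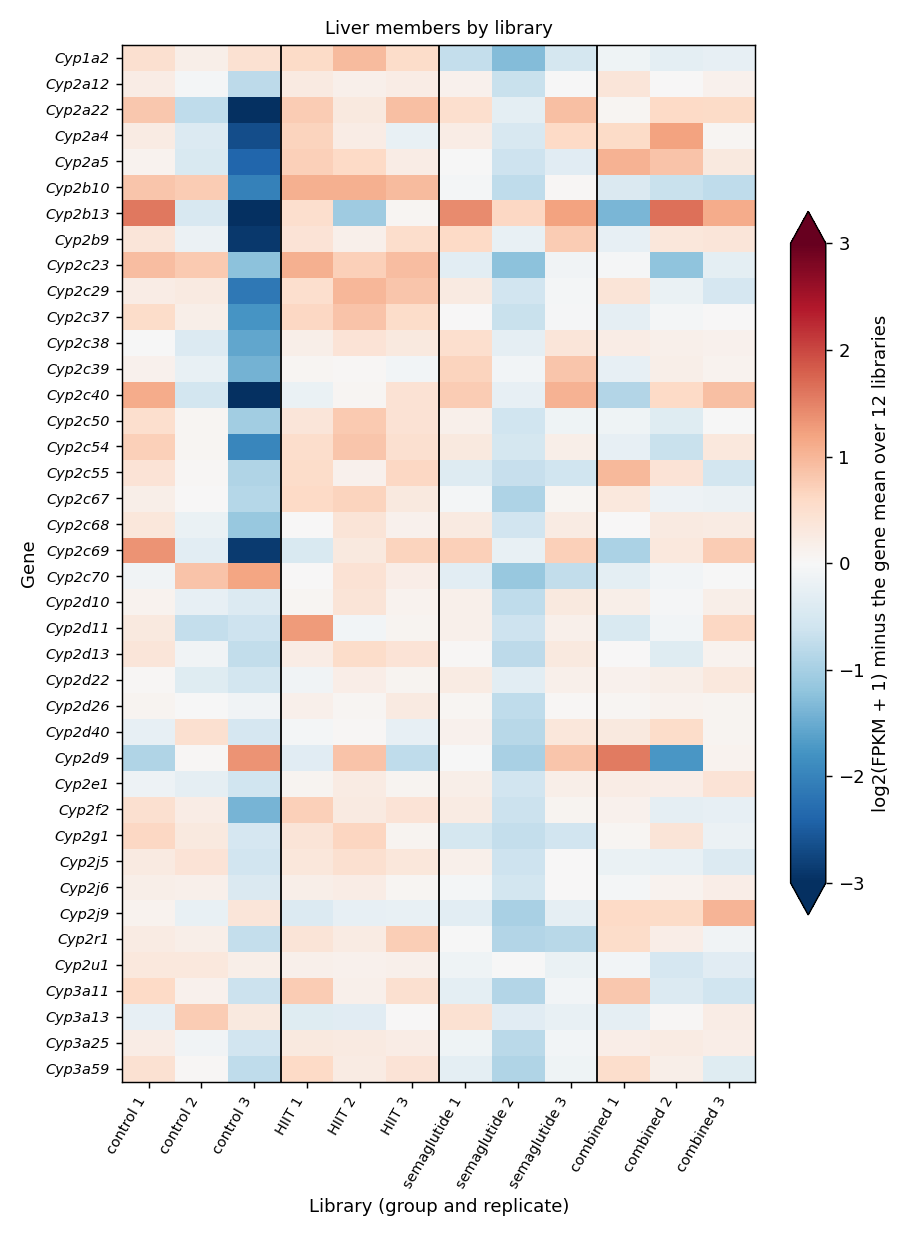
Each cell gives a liver member's log2(FPKM + 1) level in 1 library minus that member's mean over the 12 libraries, with colours ending at 3 in either direction. The column of control 3 is blue for most members and its Cyp2c70 and Cyp2d9 cells are red, and the Cyp1a2 row is blue in all 3 semaglutide libraries.

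Cyp1a2 was the one member called in a comparison with the control group. It encodes the enzyme that oxidises caffeine and aromatic amines, sits in hepatocytes around the central vein, and is a classical target of the aryl hydrocarbon receptor. Its levels were 179.6, 145 and 175 FPKM in the control group, 192, 248 and 188 FPKM in the HIIT group, 77.7, 50.9 and 87.7 FPKM in the semaglutide group, and 117, 105 and 108 FPKM in the combined group. All 6 libraries with semaglutide lay below all 6 without it, and the HIIT libraries all lay above the control libraries. Cyp1a2 fell by 1.23 on the log2 scale with semaglutide (SE 0.20, limma adjusted p = 0.0265, n = 3 against 3), which is 2.34-fold lower, and by 1.07 in the main effect (SE 0.14, adjusted p = 0.00615, 6 against 6). The combined group stood at -0.59 against control (SE 0.20, limma adjusted p = 0.242). The main-effect call held under every alternative tried, at adjusted p between 0.00166 and 0.0239, and the call against control was lost under 9 of 18, at adjusted p up to 0.319 when only the control and semaglutide libraries were fitted. Control 3 and semaglutide 2 differed in opposite ways for this gene, the first at 1.08 times the rest of its group, and without both the difference was -0.96 (SE 0.16, limma adjusted p = 0.0372).

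The bases upstream of the Cyp1a2 start are shown because this was the member with the clearest difference. The window is chr9:57683656-57683905 of GRCm38.p6, minus strand, from RefSeq, and ends at the base before the transcription start; capitals mark TATAAA, the core of a TATA box.
Cyp1a2: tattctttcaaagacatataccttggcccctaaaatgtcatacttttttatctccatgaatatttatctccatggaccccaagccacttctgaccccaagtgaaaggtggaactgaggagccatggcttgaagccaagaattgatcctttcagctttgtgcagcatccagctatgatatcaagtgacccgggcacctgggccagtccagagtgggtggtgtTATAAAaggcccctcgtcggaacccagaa
The deposited values were made on the later build GRCm39, so these coordinates serve the sequence only. Of the 46 members 38 had a RefSeq start in the table used, with 41 starts in all, and 18 of the 41 windows (43.9%) held TATAAA on either strand, against 12.4% of 32851 windows of the same length over all genes. The core of the aryl hydrocarbon receptor's response element, GCGTG, was in 6 of the 41 (14.6%) against 28.2% of all, and was not in the Cyp1a2 window, which says only that these letters are not in these 250 bases. A nuclear receptor half-site AGGTCA was in 26.8% of member windows and 14.0% of all, the HNF1 half-site GTTAAT in 14.6% and 6.43%, the C/EBP motif TTGCNNAA in 26.8% and 9.56%, and the PAR-bZIP motif TTANNTAA in 7.32% and 5.43%. Member windows include near copies and further starts of the same gene, so they are not independent and some matches are counted repeatedly. The C/EBP match, for instance, lay at the same place in Cyp2b9 and Cyp2b13. Both strands were searched, matches of the GTTAAT and TTANNTAA motifs overlapped in Cyp2d26, and a match is a string of letters and not evidence of binding.

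**Figure D3:**
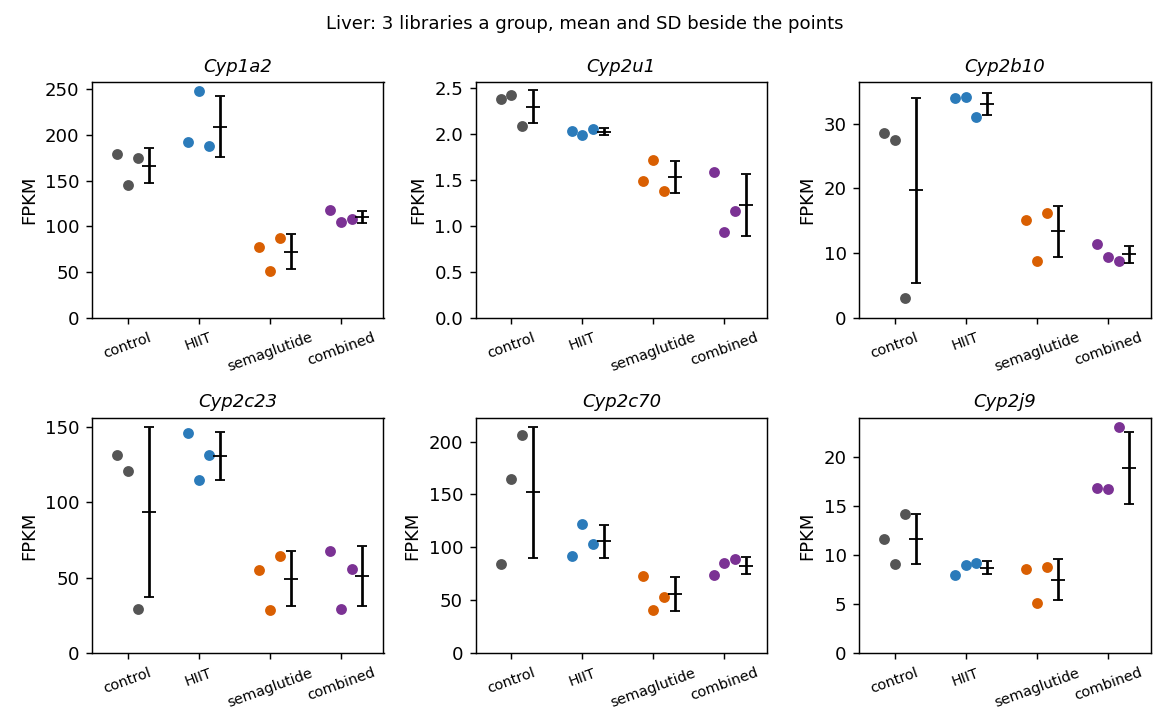
Liver FPKM of 6 members in each library, 3 libraries a group, with the group mean and SD beside the points and all axes starting at 0. Cyp1a2 and Cyp2u1 are lower in every semaglutide and combined library than in every control and HIIT library, Cyp2b10 and Cyp2c23 show the low control 3 point, and Cyp2j9 is highest in the combined group.

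Cyp2u1, the other called gene, hydroxylates long-chain fatty acids and was close to the level threshold. It measured 2.38, 2.42 and 2.08 FPKM in the control group, 2.03, 1.98 and 2.05 FPKM in the HIIT group, 1.49, 1.72 and 1.37 FPKM in the semaglutide group, and 1.59, 0.927 and 1.16 FPKM in the combined group. The semaglutide and combined libraries did not overlap the control and HIIT libraries. Its main effect of semaglutide was -0.42 (SE 0.09, limma adjusted p = 0.0407), and in 9 of the 12 fits that each left out 1 library the call was lost, at adjusted p up to 0.111. Against control alone its differences were -0.38 for semaglutide and -0.58 for the combined group (SE 0.13 for both, limma adjusted p = 0.192 and 0.101). Cyp2u1 overlaps 4930534D22Rik on the opposite strand, and its 2 deposited transcripts shared the sum, the larger holding 70.8%. Cyp1a2 and Cyp2u1 were 2 of 40 members lower without overlap in all semaglutide-treated livers, where 1.2% of all genes were, and 0 members were higher, where 1.91% were. Without control 3 and semaglutide 2 Cyp2b10, Cyp2c23, Cyp2c37 and Cyp2j5 joined them, making 6 of 40, where 5.18% of all genes were lower, and 0 were higher, where 3.51% were.

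Members known in mouse liver as targets of CAR and PXR numbered 9: Cyp2b10, Cyp2c29, Cyp2c37, Cyp2c50, Cyp2c54, Cyp2c55, Cyp2a5, Cyp3a11 and Cyp1a2. With HIIT all 9 had means above the control group at a median of 1.02, and 0 were called. Without control 3 and semaglutide 2 all 9 were still above it, at a median of 0.24, with 0 called. Of all genes 60.1% were above the control group with HIIT, and 59.3% without these libraries. Against control, semaglutide put 4 above and 5 below at a median of -0.04, and without these libraries 0 above and 9 below at -0.37, with Cyp1a2 and Cyp2b10 called. All genes had medians of 0.09 and -0.04 in these fits, and without the libraries 43% of all genes were above the control group. In the combined group 5 were above control and 4 below, at a median of 0.20. Without these libraries 2 were above and 7 below at -0.46, with Cyp2b10 called. In the combined group 60.8% of all genes were above control, and 57.9% without these libraries.

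Cyp2b10, the best known CAR target of mouse liver, was named after its values were seen. It measured 28.5, 27.4 and 3.10 FPKM in the control group, 34.0, 34.1 and 31.1 FPKM in the HIIT group, 15.0, 8.76 and 16.2 FPKM in the semaglutide group, and 11.3, 9.42 and 8.78 FPKM in the combined group. Apart from control 3, which was the lowest of all 12, every library without semaglutide lay above every library with it. The main effect of semaglutide was -0.89 with all libraries (SE 0.43, limma adjusted p = 0.314) and -1.23 without control 3 and semaglutide 2 (SE 0.08, adjusted p = 0.000133). Without these libraries it was also called against control, at -0.80 with semaglutide (SE 0.12, limma adjusted p = 0.0246) and -1.42 in the combined group (SE 0.11, adjusted p = 0.000986). The fit without them had a library fewer in the control group and in the semaglutide group. It left out control 3, the library that broke the order, so these calls depend on that choice.

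Cyp2b9, its neighbour on chromosome 7 and the highest Cyp2b gene in liver, overlapped between all groups. Its levels were 192, 132 and 19.0 FPKM in the control group, 199, 165 and 216 FPKM in the HIIT group, 227, 128 and 252 FPKM in the semaglutide group, and 126, 189 and 193 FPKM in the combined group. Without control 3 its range was 126 to 252 FPKM. With all libraries, control 3 among them, its semaglutide main effect was 0.54 (SE 0.47, limma adjusted p = 0.575). The median of the 3 Cyp2b members in that effect was also 0.54, and 0.19 without control 3 and semaglutide 2. The 2 windows upstream of these genes, chr7:25897408-25897657 and chr7:26173159-26173408 of GRCm38.p6, both plus strand, are set side by side because these near copies had unlike values in the same livers. Capitals mark TTGCNNAA, AGGTCA and GCGTG, the last also as CACGC where it lies on the minus strand.
Cyp2b10: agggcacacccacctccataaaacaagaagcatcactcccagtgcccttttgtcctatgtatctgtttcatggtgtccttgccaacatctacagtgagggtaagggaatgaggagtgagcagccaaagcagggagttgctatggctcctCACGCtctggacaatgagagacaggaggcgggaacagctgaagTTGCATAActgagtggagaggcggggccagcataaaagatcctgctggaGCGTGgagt
Cyp2b9: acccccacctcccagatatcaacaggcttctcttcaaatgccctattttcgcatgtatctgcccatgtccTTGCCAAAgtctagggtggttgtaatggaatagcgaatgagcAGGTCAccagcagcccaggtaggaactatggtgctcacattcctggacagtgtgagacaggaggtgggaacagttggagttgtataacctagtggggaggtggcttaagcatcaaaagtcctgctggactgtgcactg
The window of Cyp2b10 held 2 GCGTG strings and that of Cyp2b9 none, while AGGTCA was in the Cyp2b9 window and not in that of Cyp2b10.

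The 13 Cyp2c members include epoxygenases of arachidonic acid, steroid hydroxylases and a bile acid enzyme. With HIIT 12 of 13 were above the control group at a median of 0.74, and 10 of 13 at 0.22 without the libraries that stood apart. Cyp2c29, the most abundant, measured 609, 630.4 and 116 FPKM in the control group and 742, 1039 and 928 FPKM in the HIIT group. Every HIIT library was above every control library, and the difference was 1.33 (SE 0.55, limma adjusted p = 0.682), or 0.53 without control 3 and semaglutide 2 (SE 0.24, adjusted p = 0.817). Cyp2c38 and Cyp2c67 had the same order, with HIIT differences of 0.95 and 0.74 (SE 0.33 and 0.31, limma adjusted p = 0.682 for both), and of 0.50 and 0.43 without control 3. In all 8 members were higher in HIIT than in control without overlap, where 11.0% of all genes were, and Cyp2u1 was the 1 member lower (2.5%), where 5.7% of genes were. The same 8 and the same 1 remained without control 3 and semaglutide 2, where 14.4% and 8.77% of all genes were so placed.

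Cyp2c70 makes muricholic acids, the bile acids typical of mice. It measured 84.4, 165 and 206 FPKM in the control group, 91.5, 122 and 103 FPKM in the HIIT group, 72.5, 40.5 and 53.3 FPKM in the semaglutide group, and 73.4, 85.2 and 89.3 FPKM in the combined group. Every semaglutide library lay below every control library, and the difference was -1.38 (SE 0.30, limma adjusted p = 0.0733). It was the 1 member with its highest level in control 3. Without control 3 and semaglutide 2 the difference was -0.91 (SE 0.28, limma adjusted p = 0.178), and without control 1 it was -1.76 (adjusted p = 0.00843).

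Cyp2c23, an arachidonic acid epoxygenase, measured 132, 121 and 29.1 FPKM in the control group, 146, 115 and 132 FPKM in the HIIT group, 55.3, 28.9 and 64.2 FPKM in the semaglutide group, and 68.1, 29.4 and 56.1 FPKM in the combined group. Control 3 was the single library without semaglutide that was not above all the semaglutide-treated ones. The main effect of semaglutide was -1.06 (SE 0.37, limma adjusted p = 0.171) with all libraries and -1.24 (SE 0.20, adjusted p = 0.0089) without the pair that stood apart. Cyp2c39 had the opposite sign, with 11.5, 8.91 and 3.33 FPKM in the control group and 17.4, 9.94 and 19.4 FPKM in the semaglutide group, a difference of 0.98 (SE 0.35, limma adjusted p = 0.225) that was 0.52 without control 3.

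**Figure D4:**
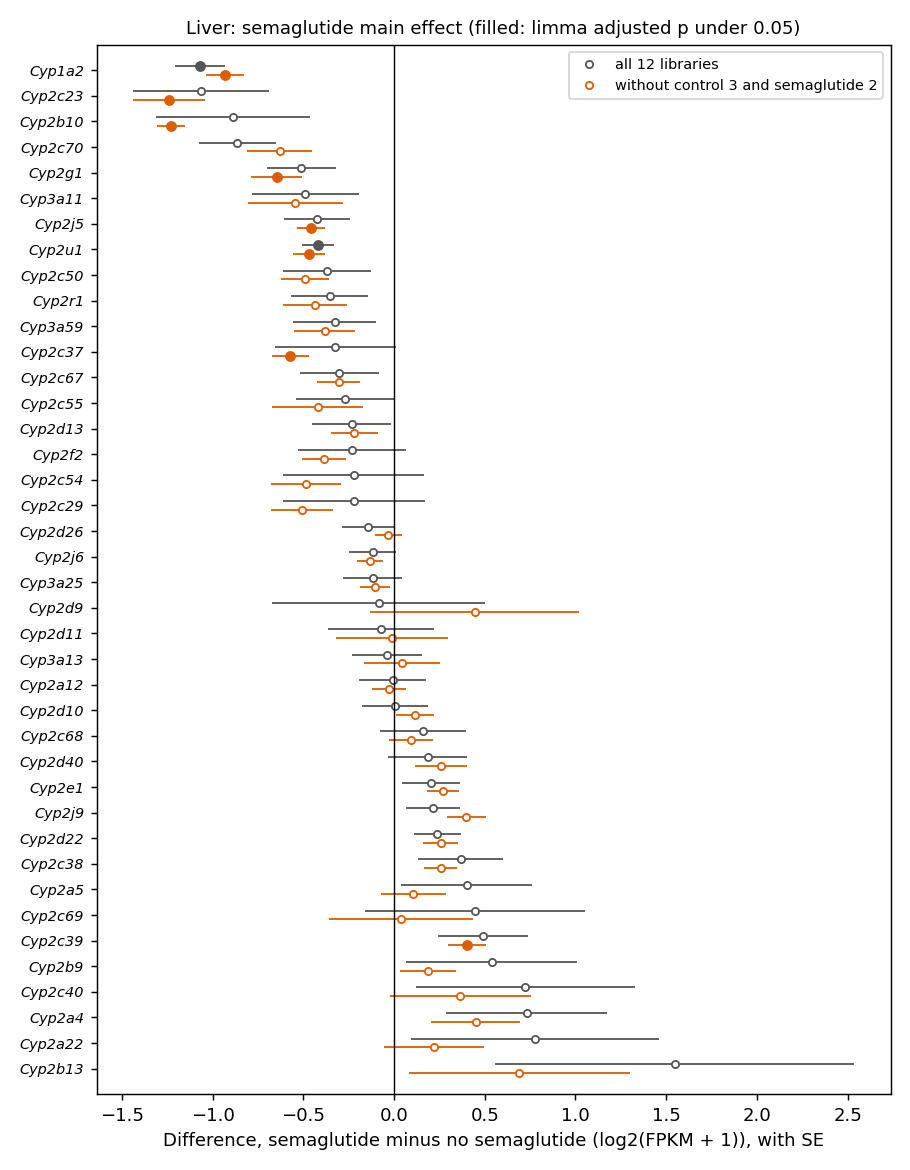
Main effect of semaglutide on each liver member on the log2(FPKM + 1) scale, with its SE, for all 12 libraries and without control 3 and semaglutide 2, filled where limma's adjusted p was below 0.05. The filled points are Cyp1a2 and Cyp2u1 with all libraries, and 8 members without the pair, of which Cyp2c39 alone lies above 0.

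Without control 3 and semaglutide 2 the semaglutide main effect called 8 of 40 members, where 7.02% of all genes were called. Cyp1a2, Cyp2b10, Cyp2c23, Cyp2c37, Cyp2g1, Cyp2j5 and Cyp2u1 were lower and Cyp2c39 higher. Among them Cyp2j5, an arachidonic acid epoxygenase of liver and kidney, stood at -0.46 (SE 0.08, limma adjusted p = 0.0105), and Cyp2g1 at -0.65 (SE 0.14, adjusted p = 0.0268). Cyp2g1 had passed the level threshold only through libraries outside the semaglutide group, so its lower level there is given as a description. The combined group against control called 5 of 40 members in that fit, where 2.93% of all genes were called: Cyp2b10, Cyp2c23, Cyp2j5 and Cyp2u1 were lower and Cyp2j9 higher. Semaglutide against control called 2 of 40, where 0.56% of all genes were called. HIIT against control, its main effect and the interaction called 0 of 40, where 0.0%, 0.0% and 0.00966% of genes were called.

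Cyp2g1 and Cyp2r1 had their lowest means in the semaglutide group. Cyp2g1 measured 2.66, 1.92 and 0.674 FPKM in the control group, 2.11, 2.72 and 1.49 FPKM in the HIIT group, 0.645, 0.452 and 0.587 FPKM in the semaglutide group, and 1.48, 2.11 and 1.10 FPKM in the combined group. All 3 semaglutide libraries lay below every other library, by little in the case of control 3, and the difference from control was -0.75 (SE 0.27, limma adjusted p = 0.227). Cyp2r1, a vitamin D hydroxylase, measured 6.31, 5.91 and 2.71 FPKM in the control group, 7.01, 6.24 and 9.16 FPKM in the HIIT group, 5.09, 2.35 and 2.44 FPKM in the semaglutide group and 7.95, 5.99 and 4.74 FPKM in the combined group, and semaglutide against control gave -0.47 (SE 0.30, limma adjusted p = 0.464). In all 5 of 40 members (12.5%) were lower in the semaglutide group than in control without overlap, namely Cyp1a2, Cyp2c70, Cyp2g1, Cyp2j9 and Cyp2u1, where 6.77% of all genes were, and 0 were higher, where 10.2% of genes were. Leaving out control 3 and semaglutide 2 gave 14 lower (35.0%) and 6 higher, where 29.0% and 18.2% of all genes were.

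Cyp2j9, an arachidonic acid hydroxylase described in mouse brain, had the smallest interaction p of the liver members. Its levels were 11.7, 9.11 and 14.2 FPKM in the control group, 7.99, 8.99 and 9.22 FPKM in the HIIT group, 8.59, 5.06 and 8.83 FPKM in the semaglutide group, and 16.8, 16.8 and 23.1 FPKM in the combined group. The combined libraries were the 3 highest of all 12, while each treatment alone had a mean below control, -0.36 with HIIT and -0.59 with semaglutide (SE 0.21 for both, limma adjusted p = 0.734 and 0.225). The interaction was 1.61 (SE 0.30, limma adjusted p = 0.396), and 1.24 without control 3 and semaglutide 2 (SE 0.21, adjusted p = 0.123).

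Cyp2a5, which hydroxylates coumarin and nicotine, had its highest levels in exercised mice. It measured 322, 215 and 56.5 FPKM in the control group, 486, 452 and 345 FPKM in the HIIT group, 294, 192 and 234 FPKM in the semaglutide group, and 609, 537 and 366 FPKM in the combined group. All 6 libraries from exercised mice were above all 6 from sedentary mice, the 1 member (2.5%) of which this was true, where 0.271% of all genes were so placed. The sum of the 5 hepatocyte markers had this order too, at 36210 FPKM or more in exercised and 34590 FPKM or less in sedentary livers. All 5 markers were higher in the HIIT main effect, at a median of 0.50, with 0 called. Their part in the Cyp2a5 values was not tested. No member had the opposite order, where 0.058% of genes did, and without control 3 and semaglutide 2 Cyp2a5 was again the 1 member, where 1.17% of genes were higher and 0.203% lower. The HIIT main effect was 1.24 (SE 0.36, limma adjusted p = 0.588), and 0.80 without control 3 and semaglutide 2 (SE 0.18, adjusted p = 0.199). Its near copy Cyp2a4, a testosterone hydroxylase, measured between 0.772 and 25.0 FPKM and was lower than Cyp2a5 in all 12 libraries.

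Cyp2e1 measured 2477, 2281 and 1846 FPKM in the control group, 2921, 3306 and 2940.4 FPKM in the HIIT group, 3130.5, 1865 and 3126 FPKM in the semaglutide group, and 3224, 3192 and 3693 FPKM in the combined group. The HIIT and combined libraries were all above the control libraries, and semaglutide 2 lay within the control range. The combined difference was 0.62 (SE 0.23, limma adjusted p = 0.286) and the HIIT difference 0.48 (SE 0.23, adjusted p = 0.687). Cyp2d22 was also higher in the combined group without overlap, at a difference of 0.50 (SE 0.18, limma adjusted p = 0.28). The combined group held 5 of 40 members above control without overlap (12.5%), where 13.8% of all genes were, and 2 below (5.0%), where 6.23% were. With control 3 and semaglutide 2 left out, the counts were 5 above and 8 below, where 21.3% and 12.9% of all genes were.

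The Cyp3a members, the main drug-oxidising subfamily, were below the control group in 4 of 4 cases with semaglutide, at a median of -0.33, or -0.31 without the libraries that stood apart. In the combined group 2 were above and 2 below at a median of 0.05, and 1 above and 3 below at -0.20 without those libraries. Cyp3a11 measured 2506, 1806 and 1043 FPKM in the control group, 2769, 1824 and 2287 FPKM in the HIIT group, 1332, 887 and 1560.3 FPKM in the semaglutide group, and 2901, 1229 and 1085 FPKM in the combined group. The groups overlapped, and the semaglutide difference was -0.45 (SE 0.42, limma adjusted p = 0.606). Cyp3a13, expressed in gut as well as liver, stood at -0.51 with HIIT (SE 0.27, limma adjusted p = 0.716), with 78.7, 159 and 115 FPKM in the control group and 72.0, 73.1 and 93.2 FPKM in the HIIT group. The Cyp3a13 difference was -0.77 without control 1 and -0.27 without control 2. The most abundant members of the remaining subfamilies, Cyp2a12, Cyp2d26 and Cyp2f2, ranged from 242 to 539, from 312 to 643 and from 159 to 684 FPKM, and their differences from control in the treated groups had limma adjusted p of 0.624 or more.

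Sex-biased members varied widely within groups. Cyp2d9, a testosterone hydroxylase and the classical male-specific P450 of mouse liver, measured 107, 203 and 513 FPKM in the control group, 158, 363 and 118 FPKM in the HIIT group, 197, 101 and 356 FPKM in the semaglutide group, and 590.3, 59.2 and 213 FPKM in the combined group. The combined group alone held both the highest and the lowest library. With all libraries each treated group was below control, by no more than 0.24 in size (SE 0.83). Without control 3 and semaglutide 2 the differences changed sign, to 0.36 with HIIT, 0.84 with semaglutide and 0.41 in the combined group, with 0 called. The 6 members known as female-biased (Cyp2b9, Cyp2b13, Cyp2a4, Cyp2c69, Cyp2c40 and Cyp2c39) were summed in each library. The sum was 29.8 FPKM in control 3 and 208 FPKM in combined 1, the lowest pair of the 12 libraries, and these held the highest Cyp2d9. It was 567 FPKM in control 1 and 538 FPKM in combined 2, which were among the lowest for Cyp2d9, but semaglutide 3 had the highest sum, 568 FPKM, beside a Cyp2d9 of 356 FPKM. All 6 were above control with HIIT, semaglutide and the combination, at medians of 1.05, 1.17 and 1.05, with 0 called. Without the libraries that stood apart 3, 6 and 3 of the 6 were above it, at medians of -0.06, 0.60 and -0.01, again with 0 called.

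The partners and regulators of these enzymes included 2 called genes in liver with all libraries. CAR (Nr1i3) measured 113, 63.1 and 51.1 FPKM in the control group, 116, 154 and 143 FPKM in the HIIT group, 243, 133 and 261 FPKM in the semaglutide group, and 280.2, 307 and 326 FPKM in the combined group. It rose by 2.07 in the combined group (SE 0.30, limma adjusted p = 0.0245) and by 1.32 in the semaglutide main effect (SE 0.22, adjusted p = 0.0153), and by 1.36 in the latter without the libraries that stood apart (adjusted p = 0.00166). Nr1i3 overlaps Tomm40l on the opposite strand. Cyp2b10, the best known target of CAR, had lower means in the semaglutide and combined groups than in the control group, and no relation between the genes was tested. Nr0b2, the bile acid-responsive corepressor SHP, measured 29.3, 26.5 and 28.0 FPKM in the control group and 17.7, 9.63 and 9.75 FPKM in the semaglutide group, and fell by 1.17 (SE 0.22, limma adjusted p = 0.0441). Without the libraries that stood apart the Nr0b2 difference was -1.03 (SE 0.26, limma adjusted p = 0.114), while its main effect stayed called, at -1.13 and -1.06 (adjusted p = 0.0074 and 0.00827).

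Of 25 regulators tested, limma called 1 higher and 1 lower in the semaglutide main effect with all libraries. PXR (Nr1i2) ranged from 21.0 to 48.5 FPKM and Ahr from 5.49 to 10.3 FPKM in liver. With all libraries neither was called in any comparison, and 0 of the 15 genes of electron supply and haem synthesis were called. Without the libraries that stood apart, 7.02% of all genes were called in the semaglutide main effect. In that fit Nr1i2 was called at 0.36 (SE 0.09, limma adjusted p = 0.0433). Alas1, of the electron supply and haem list, was called there at 1.42 (SE 0.26, limma adjusted p = 0.0141). Por was 138, 186 and 137 FPKM in the control group and 219, 224 and 264 FPKM in the combined group, without overlap, at a difference of 0.63 (SE 0.19, limma adjusted p = 0.204), and its semaglutide main effect of 0.54 was called without the libraries that stood apart (SE 0.13, adjusted p = 0.0377). Cyb5a ranged from 532 to 937 FPKM and was not called. Because Cyp1a2 lies around the central vein, markers of liver zones were read beside it. The 5 pericentral markers summed to 724 to 1275 FPKM in the control group, 1385 to 1728 FPKM in the HIIT group, 708 to 965 FPKM in the semaglutide group and 790 to 910 FPKM in the combined group, and 0 of 5 were called in the semaglutide main effect. The 5 periportal markers summed to 1652 to 2443, 1978 to 2469, 1077 to 1814 and 1767 to 2135 FPKM in the same order. All 5 periportal markers had lower means with semaglutide in the main effect, and Hal and Sds, enzymes of histidine and serine breakdown, fell by 0.93 and 1.10 (SE 0.16 and 0.20, limma adjusted p = 0.0192 and 0.0234). Their part in the Cyp1a2 result was not tested.

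In kidney 0 of the 19 members were called in any of the 6 comparisons. The share of all 11551 genes called by limma was 0.0% for HIIT, 0.00866% for semaglutide, 0.0% for the combined group, 0.0173% for the semaglutide main effect and 0.0% for the HIIT main effect and the interaction. Without control 1 limma again called 0 of 19 members in each, where 0.0%, 0.0173%, 0.0%, 0.0519%, 0.0% and 0.00866% of genes were called. At an unadjusted limma p below 0.05 the member counts were 1, 0, 3, 3, 1 and 2 for HIIT, semaglutide, the combined group, the semaglutide main effect, the HIIT main effect and the interaction, where 12.5%, 3.32%, 2.99%, 4.65%, 3.87% and 3.95% of all genes passed. The median of all genes was itself shifted in kidney, by -0.26 with HIIT, -0.14 with semaglutide and -0.09 in the combined group, so the members are best read against it. With HIIT 8 of 19 members were above the control group at a median of -0.10, and 15 of 19 at 0.20 after median-ratio scaling, which removes that shift. With semaglutide 6 of 19 were above it, at a median of -0.14, and 9 of 19 after scaling. In the combined group 10 of 19 were above it, at a median of 0.01, and 11 of 19 after scaling. Without control 1 the counts above it were 6 of 19 for HIIT, 4 of 19 for semaglutide and 7 of 19 for the combined group, at medians of -0.19, -0.21 and -0.10. All genes then had medians of -0.18, -0.06 and -0.01, with 21.8%, 33.7% and 47.4% of them above the control group.

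**Figure D5:**
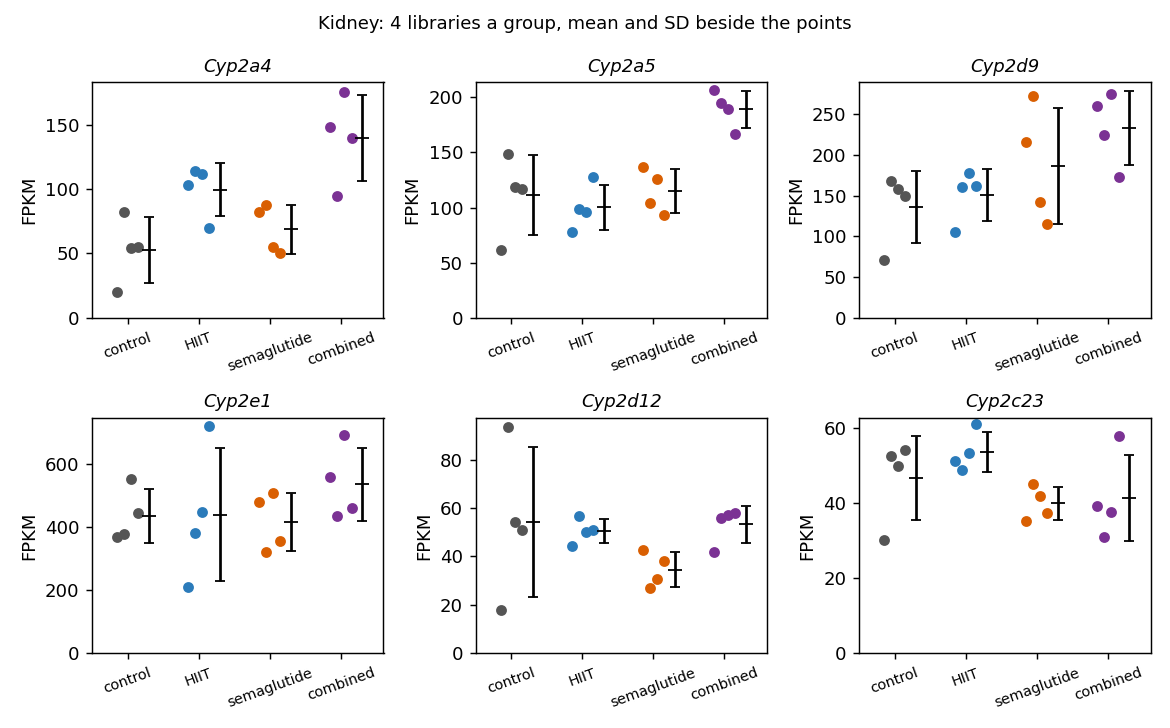
Kidney FPKM of 6 members in each library, 4 libraries a group, with the group mean and SD beside the points and all axes starting at 0. Cyp2a4, Cyp2a5 and Cyp2d9 are higher in every combined library than in every control library, and the lowest control point of Cyp2a4, Cyp2a5, Cyp2d9, Cyp2d12 and Cyp2c23 is library control 1.

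The kidney members with the smallest p-values were the Cyp2a pair. Cyp2a4 measured 19.7, 82.2, 54.1 and 55.3 FPKM in the control group, 103, 114, 111 and 69.7 FPKM in the HIIT group, 82.3, 87.3, 54.8 and 50.0 FPKM in the semaglutide group, and 148, 94.5, 175 and 139.9 FPKM in the combined group. Every combined library was above every control library, and 3 of 4 HIIT libraries were. The combined difference was 1.51 (SE 0.34, limma adjusted p = 0.436), and 1.11 without control 1 (SE 0.26, adjusted p = 0.58). The HIIT difference was 1.04 (SE 0.34, limma adjusted p = 0.378), and 0.63 without control 1 (SE 0.26, adjusted p = 0.577). Without HIIT replicate 4 it was 1.20 and called (limma adjusted p = 0.0412), in a fit where 2099 genes were called. Cyp2a4 overlaps Gm42375 on the opposite strand.

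Cyp2a5 measured 61.1, 149, 118 and 117 FPKM in the control group, 78.1, 98.9, 96.1 and 128 FPKM in the HIIT group, 137, 105, 126 and 93.5 FPKM in the semaglutide group, and 206, 195, 189.7 and 166 FPKM in the combined group. The combined libraries were the 4 highest of all 16, at a difference of 0.83 from control (SE 0.23, limma adjusted p = 0.749), while HIIT alone gave -0.10 (SE 0.23, adjusted p = 0.787). Without control 1 these Cyp2a5 differences were 0.57 and -0.36 (SE 0.19 for both, limma adjusted p = 1.0 and 0.577). The ratio of Cyp2a4 to Cyp2a5 was 0.323 to 0.553 in the control kidneys, 0.546 to 1.32 in the HIIT kidneys, 0.435 to 0.835 in the semaglutide kidneys and 0.485 to 0.923 in the combined kidneys. In liver it lay between 0.0137 and 0.0693. Liver values were summed from transcripts and kidney values were deposited per gene. The part of that unlike processing in the ratios was not tested.

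The windows upstream of this pair are chr7:26306942-26307191 for Cyp2a4 and chr7:26835089-26835338 for Cyp2a5 (GRCm38.p6, plus strand). They are shown because the genes are near copies whose ratio differed between the deposited liver and kidney values. Capitals mark GTTAAT, TTGCNNAA and TATAAA.
Cyp2a4: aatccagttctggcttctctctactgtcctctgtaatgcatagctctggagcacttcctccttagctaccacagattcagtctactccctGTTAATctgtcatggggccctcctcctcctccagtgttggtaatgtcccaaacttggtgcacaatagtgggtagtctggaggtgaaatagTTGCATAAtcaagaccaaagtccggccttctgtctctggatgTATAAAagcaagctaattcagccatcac
Cyp2a5: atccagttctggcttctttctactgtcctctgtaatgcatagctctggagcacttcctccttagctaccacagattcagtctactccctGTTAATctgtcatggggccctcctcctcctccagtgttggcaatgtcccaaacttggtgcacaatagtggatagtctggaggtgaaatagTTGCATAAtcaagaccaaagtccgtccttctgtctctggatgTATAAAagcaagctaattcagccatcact
Set against each other at an offset of 1 base, 245 of 249 positions were identical (98.4%), and each window held the same 3 marked motifs.

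Cyp2d9 was also above control in all combined kidneys. It measured 71.2, 168, 158 and 149.8 FPKM in the control group, 105, 160.0, 178 and 161 FPKM in the HIIT group, 216, 272, 143 and 115 FPKM in the semaglutide group, and 260.2, 224, 276 and 173 FPKM in the combined group, a combined difference of 0.82 (SE 0.30, limma adjusted p = 0.994) and 0.53 without control 1 (SE 0.27). With Cyp2a4 and Cyp2a5 this made 3 of 19 members (15.8%) higher in the combined group without overlap, where 1.46% of all genes were, and the same 3 remained without control 1, where 4.55% were. No member was lower in the combined group or outside the control range with HIIT or semaglutide alone, where 2.49% of all genes were lower in the combined group, 0.424% higher and 2.77% lower with HIIT, and 0.493% higher and 3.09% lower with semaglutide. Without control 1, Cyp2c23 and Cyp2d12 were lower with semaglutide in that sense, where 5.52% of all genes were and 1.41% were higher, and Cyp2d26 was lower in the combined group, where 4.94% were; with HIIT it was 0 members, where 1.71% were higher and 4.28% lower. Kap, an androgen-regulated gene of the proximal tubule named after its values were seen, ranged from 838 to 2880 FPKM in the control group, from 4103 to 9087 FPKM in the HIIT group, from 2030 to 6156 FPKM in the semaglutide group and from 2711 to 8023 FPKM in the combined group. The 5 proximal tubule markers, of which Kap is 1, summed to 1955 to 4914 FPKM in the control group and 4236 to 9481 FPKM in the combined group, and 0 of 5 were called. The combined difference of Kap was 1.76 (SE 0.44, limma adjusted p = 0.654). Of the 5 markers 2 were above and 3 below the control group in the combined group, at a median of -0.13, and 1 above and 4 below with HIIT, at a median of -0.19. Their part in the Cyp2a4 and Cyp2d9 values was not tested.

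With all libraries the remaining kidney members overlapped with the control group in every comparison. Cyp2e1, the most abundant, had group means of 436 ± 84.9 (SD, n = 4), 440.4 ± 213, 417 ± 92.0 and 537 ± 117 FPKM in the control, HIIT, semaglutide and combined groups. Cyp2j5 had means of 283 ± 66.9, 252 ± 96.0, 237 ± 79.2 and 239 ± 28.6 FPKM in the same order. Cyp2d12 measured 18.0, 93.6, 54.3 and 51.1 FPKM in the control group and 42.5, 26.9, 30.5 and 38.2 FPKM in the semaglutide group, a difference of -0.45 (SE 0.33, limma adjusted p = 0.913), and -0.89 without control 1 (SE 0.22, adjusted p = 0.518) but -0.12 without control 2. Cyp2c23 stood at 30.2, 52.6, 49.9 and 54.1 FPKM in the control group and 51.3, 48.7, 53.4 and 61.1 FPKM in the HIIT group. Cyp1b1, a steroid and aromatic hydrocarbon oxidase, was 19.5 FPKM in control 1 and between 4.41 and 8.97 FPKM in the other 15 libraries, so its HIIT difference of -0.37 (SE 0.30, limma adjusted p = 0.462) became 0.01 without control 1. Cyp2s1, Cyp2f2 and Cyp2u1 ranged from 3.61 to 7.28, from 2.02 to 5.42 and from 1.43 to 3.01 FPKM, and limma adjusted p was 0.378 or more for their differences from control.

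Among other genes of the enzyme system in kidney, Por ranged from 41.0 to 105 FPKM, Cyb5a from 311 to 688 FPKM, Nr1i2 from 0.973 to 3.23 FPKM and Ahr from 0.541 to 2.15 FPKM, and 0 of 15 electron supply and haem genes and 0 of 21 regulators were called. Nr1i3 was below 1 FPKM in every kidney library. Of 18 P450 genes of other families tested in kidney, Cyp27b1, which activates vitamin D, was the 1 called. It measured 17.6, 21.5, 6.96 and 14.0 FPKM in the control group and 85.8, 42.0, 57.8 and 58.9 FPKM in the semaglutide group. The call was in the semaglutide main effect, where Cyp27b1 rose by 1.48 (SE 0.23, limma adjusted p = 0.0431). That effect also takes in the HIIT and combined kidneys. Against control 0 of the 18 were called in any treated group. The Cyp27b1 difference without control 1 is not given here. In liver 0 of 23 P450 genes of other families were called.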

How the data were processed

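RNA from liver and kidney was sequenced as stranded, paired-end poly(A) libraries, per the labels' protocols. The authors deposited FPKM values, per transcript for liver and per gene for kidney; reads were trimmed with Trimmomatic 0.36, aligned with STAR 2.7.9a to GRCm39 and quantified with featureCounts 2.0.1 and StringTie 2.1.4, per the submitters' processing notes. Read counts were not used here, so the depth behind each value is unknown and no counting interval is given. Summed FPKM ran from 518967 to 552993 in liver and from 495273 to 662489 in kidney.

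Liver transcripts were summed by gene name. Transcripts with no gene name (470 of 66878 in liver) and kidney entries with none (1853 of 23650) were left out. Genes with at least 1 FPKM in 3 liver or 4 kidney libraries were fitted with limma 3.58.1 (R 4.3.3, trend option) on log2(FPKM + 1), all 4 groups of a tissue in 1 fit, with Benjamini-Hochberg adjustment over the 10348 liver or 11551 kidney genes of a comparison. Fold changes on this scale understate the change of genes at low levels. Sums, counts and motif searches used Python 3.11.15 and figures matplotlib 3.10.9.

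On simulated data the liver fit recovered 71% of genes changed by 1 on the log2 scale and 92% of those changed by 2 in semaglutide against control, over 10348 genes. The kidney fit recovered 60% and 99% over 11551 genes. These runs also made 9 false calls in liver and 4 in kidney. With no change simulated the fit made 0 calls in either tissue. The changed genes were drawn from those at higher levels, so low members such as Cyp2u1 and Cyp2g1 are not covered. Noise was drawn separately for each gene, so no simulated library stood apart.

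Nothing in the labels says that each library came from its own animal, so the p-values reflect the spread between libraries, and that spread may be technical. Members and gene lists were chosen with earlier results of these data known. Members were named when called, when highest in their subfamily, or when among the 3 smallest p-values of a treatment in either direction. Partners and regulators were named when called with all libraries, and Por, Cyb5a, Nr1i3, Nr1i2 and Ahr always. Any other gene was named after its values were seen. The fits were repeated with a pseudocount of 0.1, without the filter, after median-ratio scaling, with a block for the replicate number, without each library, without the libraries that stood apart, and on the compared groups only. Leaving out the libraries that stood apart took a library each from the liver control, liver semaglutide and kidney control groups.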

Additional observations from a re-analysis of the deposited data

Results flagged for a closer look

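Among 76 groups of 4 kidney libraries tested for a single distant value, 3 held one, and chance alone marks about 1 group in 20. All 3 were in the combined group. Cyp2d12 was 41.9 FPKM in combined 1, below the 55.8 to 58.0 FPKM of the other libraries of its group. Cyp2j7 was 1.46 FPKM in combined 4, above the 0.494 to 0.639 FPKM of the others. Cyp2j9 was 11.3 FPKM in combined 4, above the 5.14 to 5.88 FPKM of the others. The liver groups, of 3 libraries each, were too small for this test.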

How the results depend on the processing

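The number of members called in liver by semaglutide against control, 1 with all settings as reported, was 0 without the filter on low values, under median-ratio scaling, with the replicate block and with only the groups compared, 2 without control 3 and semaglutide 2, and 0 to 2 on leaving out 1 library. The semaglutide main effect, 2 as reported, called 1 without the filter, 1 with the replicate block, 8 without control 3 and semaglutide 2, and 1 to 6 on leaving out 1 library. The combined group, 0 as reported, called 1 under median-ratio scaling, 5 without control 3 and semaglutide 2, and 0 to 1 on leaving out 1 library. Kidney HIIT against control, 0 as reported, called 0 to 1. In these cases the cause was not tested. Each result for a single gene was tried under several alternatives, and the tries were counted together. Of these tries 826 kept their direction and side of the threshold, 20 lost a call, 7 gained one and 5 changed sign. Only results called at first could lose a call. Cyp1a2 with semaglutide against control lost it under 9 of 18 alternatives. The Cyp2u1 main effect of semaglutide lost it under 11 of 17, and that of Cyp1a2 under 0 of 17. The 5 values after a sign change were near 0: the liver interaction of Cyp2u1 was 0.0317 without control 3 and semaglutide 2 and ran from -0.183 to 0.0291 on leaving out 1 library, kidney HIIT of Cyp1b1, -0.37 as reported, was 0.00503 without control 1 and ran from -0.62 to 0.00503, and kidney HIIT of Cyp2d22, -0.26 as reported, was 0.0299 under median-ratio scaling. The replicate numbers did not pair the samples: libraries of the same number had correlations of -0.31 to 0.16 in liver and -0.47 to 0.33 in kidney, and 0 of 12 and 5 of 16 libraries correlated best with their own number. Without read counts, the counting error of members near 1 FPKM is not known.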
